A study of Mus musculus with 4 samples.

Results

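Transcripts of the immunoglobulin heavy chain locus on chromosome 12 and of the kappa light chain locus on chromosome 6 were examined in whole brain of wild type and Adar2 knockout mice. A transcript cluster is a group of probes designed against one transcribed stretch of the genome. All clusters of the deposited table that start within a window around each locus were taken, on both strands, by a rule that uses positions only. The clusters found start between positions 113258702 and 116000028 of chromosome 12 and between 67534059 and 70726435 of chromosome 6. This gave 250 of the 33793 clusters of the deposited table, 131 in the heavy chain locus and 119 in the kappa locus.

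The series held 4 arrays, 2 from wild type and 2 from Adar2 knockout brains of adult female 129SV mice. Adarb1, the gene of the RNA editing enzyme ADAR2, has no intact copy in the knockout. Per the study's methods, wild type and knockout animals were siblings from crosses of heterozygous parents. Animals of both genotypes were homozygous for a pre-edited Gria2 allele, which spares Adar2-deficient mice an early death, so the wild type here also carried this allele. The labels number the replicates without naming the animals, so p-values measure the spread between these arrays, part of which may be technical. The neuronal gene Snap25 gave log2 signals between 12.97 and 13.16, and the astrocyte gene Gfap between 9.14 and 9.62, on the 4 arrays. Adarb1 gave 10.50 and 10.45 in the wild type and 9.16 and 8.96 in the Adar2 knockout. Its log2 difference was −1.42 (SE 0.118), in the direction of the labels.

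An antibody is built from paired heavy and light chains. In a developing B cell a variable, a diversity and a joining segment of the heavy chain locus, and a variable and a joining segment of a light chain locus, are fused by recombination and transcribed together with a constant region gene. The heavy chain constant region sets the antibody class: Ighm encodes that of IgM, Ighg1, Ighg2b, Ighg2c and Ighg3 those of the IgG subclasses, Ighe that of IgE and Igha that of IgA, while Igkc encodes the constant region of the kappa light chain. Plasma cells, the secreting end stage of the B lineage, hold these transcripts in very large amounts. Neurons and glia are not their usual source.

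The members were named through overlap with the RefSeq annotation of GRCm38.p6. In the heavy chain locus 100 clusters lay on variable segments, 6 on variable pseudogenes, 4 on diversity segments, 3 on joining segments and 7 on constant regions. In the kappa locus the numbers were 96 on variable segments, 8 on variable pseudogenes, 3 on joining segments and 1 on the constant region. The other 22 spanned many segments, ran antisense to a segment, covered other genes within the loci, such as Adam6a and Adam6b, or could not be named, among them 4 that overlap no RefSeq record. Most heavy chain members, 124 of 131, lay on the minus strand, whereas the kappa members fell on both strands, 48 on plus and 71 on minus.

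Most members sat low on the scale of the array. The Y-linked genes Ddx3y, Eif2s3y, Kdm5d and Uty, which female mice lack, showed where signal without a transcript lay on these arrays, between 3.49 and 4.40. All 4 signals were at or below 4.40 in 111 members, 44.4% of them, against 19.4% of all clusters. The file marked 129 members (51.6%) as having probes that can cross-hybridize, against 14.7% of all clusters, and a member had a median of 11 probes where the median cluster had 22. Neighbouring segments of one family can therefore share signal, and the value of a single variable segment is uncertain in this respect. Exactly equal values on all 4 arrays occurred in 4 members, the diversity pair Ighd5-7 and Ighd6-1 and a pair of variable clusters.

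One array stood apart before any genotype was compared. Adar2 knockout replicate 1 lay at least 1 log2 unit above the highest of the other 3 arrays in 28 clusters of the whole table, or 0.0829%. Of these 28, 10 were members of the heavy chain and kappa loci, which is 4% of the 250 members. A further 8 of the 28 were on a list of salivary gland genes, led by Bpifa2, a secreted salivary protein gene with 12.61 on this array and 5.13, 5.09 and 5.28 on the others. The other 10 were neither, among them Chia, Dnase1 and the growth hormone gene Gh. Gh gave 9.95 on this array and 6.30, 5.68 and 8.36 on the others. The loci and the list were chosen with earlier results of these data known, so these counts are description only. No member stood at least 1 log2 unit above or below on any of the other 3 arrays. Differences between the genotypes are therefore given with this array and, where it bears on them, without it. A fit without it holds a single knockout array, which is assumed to vary like the wild type.

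The constant regions carried the widest differences. The Ighg1 cluster (chr12:113328976-113330523, minus strand) gave log2 signals of 5.16 and 4.91 in the wild type and of 8.41 and 5.35 in Adar2 knockout replicates 1 and 2. On replicate 1 it was 9.65-fold above the mean of the other 3 arrays, the largest such excess among the members. Both knockout values exceeded both wild type values, the second only narrowly. The limma log2 difference was 1.84 (SE 0.908) with an unadjusted p of 0.09 and an adjusted p of 0.835, and it was 0.32 without replicate 1.

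Igkc (chr6:70726435-70726757, plus strand) followed with 7.16 and 6.93 in the wild type and 9.79 and 6.95 in the Adar2 knockout. The excess of replicate 1 over the other 3 arrays was 6.85-fold, and knockout replicate 2 lay between the wild type arrays. Without replicate 1 the log2 difference turned from 1.32 (SE 0.843, limma adjusted p of 0.856) to −0.10.

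Ighg2b (chr12:113306389-113307933, minus strand) measured 4.88 and 5.19 in the wild type against 7.26 and 4.78 in the knockout. Here knockout replicate 2 was the lowest of the 4 arrays while replicate 1 was 4.96-fold above the rest. The difference was 0.98 (SE 0.741, limma adjusted p of 0.873) with replicate 1 and −0.26 without it. For Ighg2c replicate 1 was also the highest and replicate 2 the lowest array, at a smaller distance. It gave 7.91 and 7.69 in the wild type and 8.33 and 7.64 in the knockout, and its difference of 0.18 was −0.16 without replicate 1.

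Ighm, Ighe and Ighg3 did not share this excess. Ighm, the class made first by a B cell, gave 9.44 and 9.18 in the wild type and 9.13 and 9.12 in the knockout, so that replicate 1 was almost the lowest. Ighe gave 4.97 and 4.80 against 4.81 and 4.53. Ighg3 gave 5.36 and 5.53 against 5.09 and 5.19, and here replicate 1 was the lowest of all. Ighg3 was lower in the knockout at an unadjusted limma p of 0.0407, with a log2 difference of −0.30 (SE 0.116) and an adjusted p of 0.834. Without replicate 1 the difference was −0.26 and this call was lost, at an unadjusted limma p of 0.153. A long cluster that ends within Igha and overlaps 74 annotated genes and segments gave 5.61 and 5.53 against 5.90 and 5.84. Its difference was 0.30 (SE 0.105), with an unadjusted limma p of 0.03 and an adjusted p of 0.834, but it cannot be assigned to Igha alone. Its difference was 0.27 without replicate 1, at an unadjusted limma p of 0.0893. The call was also lost under each rescaling of the arrays, at 0.0547 after median centring, 0.0577 after quantile and 0.054 after cyclic loess normalization.

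The joining segments repeated the pattern of Ighg1 and Igkc in part. Ighj4 gave 5.89 and 6.08 in the wild type and 7.69 and 5.89 in the Adar2 knockout. Ighj1 gave 8.19 and 7.94 against 9.72 and 8.01. On both segments knockout replicate 1 was far above 3 arrays that lay close together, by 1.61 and 1.53. Their log2 differences, both 0.80, were −0.10 and −0.06 without it. Ighj3 gave 6.20 and 6.72 against 7.40 and 6.97. Both knockout values of Ighj3 exceeded both wild type values, and its difference of 0.72 (SE 0.222) had an unadjusted limma p of 0.0181 and an adjusted p of 0.834. Without replicate 1 the difference was 0.51 and the call was lost, at an unadjusted limma p of 0.177.

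In the kappa locus Igkj5 gave 8.47 and 8.85 in the wild type and 9.52 and 8.60 in the knockout. Igkj1 gave 8.25 and 8.66 against 9.12 and 8.39. Both were highest on replicate 1, whereas the second knockout array lay within the wild type range, and the difference of each was −0.06 without replicate 1. Igkj3 gave 5.22 and 4.70 against 4.98 and 5.09, so its groups overlapped and replicate 1 was not the highest. Over the 8 constant region clusters, the median log2 difference was 0.242 with all arrays and −0.175 without replicate 1. Over the 6 joining clusters it was 0.562 with all arrays and −0.057 without replicate 1.

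**Figure D1:**
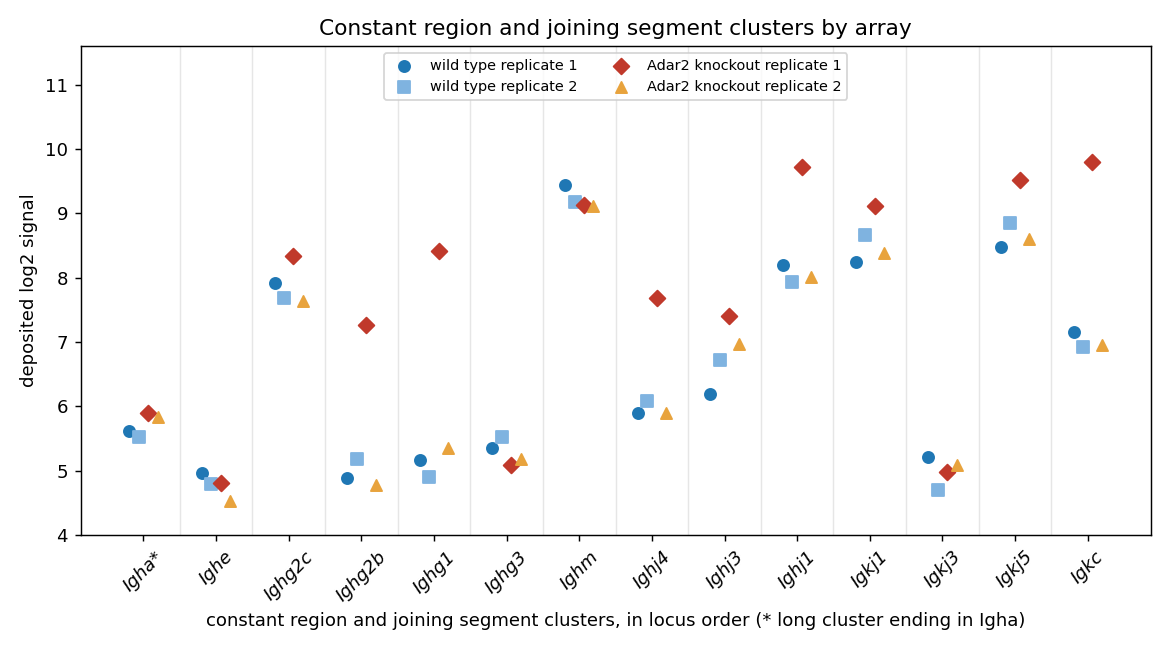
Deposited log2 signal (vertical axis) of the 8 constant region and 6 joining segment clusters (horizontal axis), with 1 point for each of the 4 arrays. Adar2 knockout replicate 1 lies well above the other 3 arrays at Ighg1, Ighg2b, Ighj4, Ighj1 and Igkc and within or near their range at Ighe, Ighg3, Ighm and Igkj3, and the asterisk marks the long cluster that ends in Igha.

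Single variable segments stood out on the same array. Ighv5-4 (chr12:113597446-113597905, minus strand) gave 3.38 and 3.53 in the wild type and 5.55 and 3.95 in the Adar2 knockout. Its log2 difference, 1.30 (SE 0.483, unadjusted limma p of 0.0377, adjusted p of 0.834), was the largest among the members called higher, and it was 0.50 without replicate 1. The call of Ighv5-4 was lost when either wild type array was left out, at an unadjusted limma p of 0.252 without the first and 0.212 without the second. Ighv9-1 (chr12:114093928-114094221) gave 5.35 and 5.09 against 6.81 and 5.68, a difference of 1.02 (SE 0.355, unadjusted limma p of 0.029, adjusted p of 0.834) that was 0.46 without replicate 1, at an unadjusted limma p of 0.0739. In these 2 segments both knockout arrays exceeded both wild type arrays, with replicate 1 much the higher of the pair. Of Ighv5-4 all signals but that of replicate 1 lay below 4.40, within or under the range of the Y-linked genes, so the size of its difference is uncertain. The probes of Ighv5-4 can cross-hybridize, and those of Ighv9-1 are marked as unique.

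Igkv4-57 (chr6:69575977-69576500) gave 5.76 and 5.20 in the wild type and 6.81 and 5.74 in the knockout, and Igkv4-72 (chr6:69226854-69227383) gave 3.54 and 3.64 against 4.78 and 3.74. Ighv1-52 gave 4.52 and 4.47 against 5.64 and 4.63. In each of these 3 the second knockout array lay close to or within the wild type pair, and replicate 1 was more than 1 above all of them. Among the members next below a distance of 1 were Igkv1-110, where replicate 1 lay 0.93 above the highest other array, Ighv1-66 (0.85), Igkv8-28 (0.81) and Igkv4-59 (0.80). Igkv1-110 gave 3.94 and 3.83 in the wild type and 4.91 and 3.98 in the knockout. Igkv4-59 gave 3.57 and 2.91 against 4.37 and 3.09, and Igkv4-57-1 gave 3.57 and 3.86 against 4.61 and 3.72. In the heavy chain locus Ighv1-80 gave 3.41 and 2.64 against 3.94 and 3.38. The wild type pair of Igkv4-59 and Ighv1-80 was itself far apart, and in these 2 and Igkv4-57-1 knockout replicate 2 fell within it. All 4 signals of Igkv4-59 and Ighv1-80 were at or below 4.40. Igkv4-72, Igkv1-110 and Igkv4-57-1 exceeded it on replicate 1 only. The differences of these segments are therefore of uncertain size, and the probes of each can cross-hybridize.

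With the distance lowered to 0.5 log2 units, replicate 1 stood above the others in 26 members, 10.4%, against 0.601% of all clusters. The same distance was reached by 1 member on wild type replicate 1, by 0 on wild type replicate 2 and by 4 on knockout replicate 2. The 26 members comprised 3 constant regions, 3 joining segments, 19 variable segments and 1 unnamed cluster between the joining segments. Of the 19 variable segments 17 can cross-hybridize, and 6 belonged to the Igkv4 family, which has 26 clusters in the table. None of the 14 variable pseudogenes and none of the 4 diversity segments was among them.

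Over all 250 members, the 26 above included, replicate 1 held a small excess. This array was the highest of the 4 in 112 members, 44.8%, against 24.9% of all clusters. It was the highest in 63 of the 131 heavy chain members and in 49 of the 119 kappa members. The median member lay 0.143 above the mean of the other 3 arrays on replicate 1, where the median of all clusters was 0.010. Corresponding medians of the members were −0.087 on wild type replicate 1, −0.100 on wild type replicate 2 and −0.010 on knockout replicate 2. In the groups outside the 26, knockout replicate 1 was highest in 6 of 14 variable pseudogenes and in 0 of 4 diversity segments. Their medians on it were 0.028 and 0.147.

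Variable and joining segments of the T cell receptor loci, which are built like the immunoglobulin segments but rearranged in T cells, were set beside them. This set of 211 clusters was chosen after the signals had been seen. Replicate 1 was the highest array in 26.1% of them and stood 0.5 or more above the others in 0. The median T cell receptor cluster lay 0.020 above the other arrays on replicate 1. Variable segments with a mean signal above 4.40 had replicate 1 highest in 47 of 84 clusters, and those at or below it in 44 of 112. The share was 32 of 81 in variable segments with unique probes and 59 of 115 in those that can cross-hybridize.

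**Figure D2:**
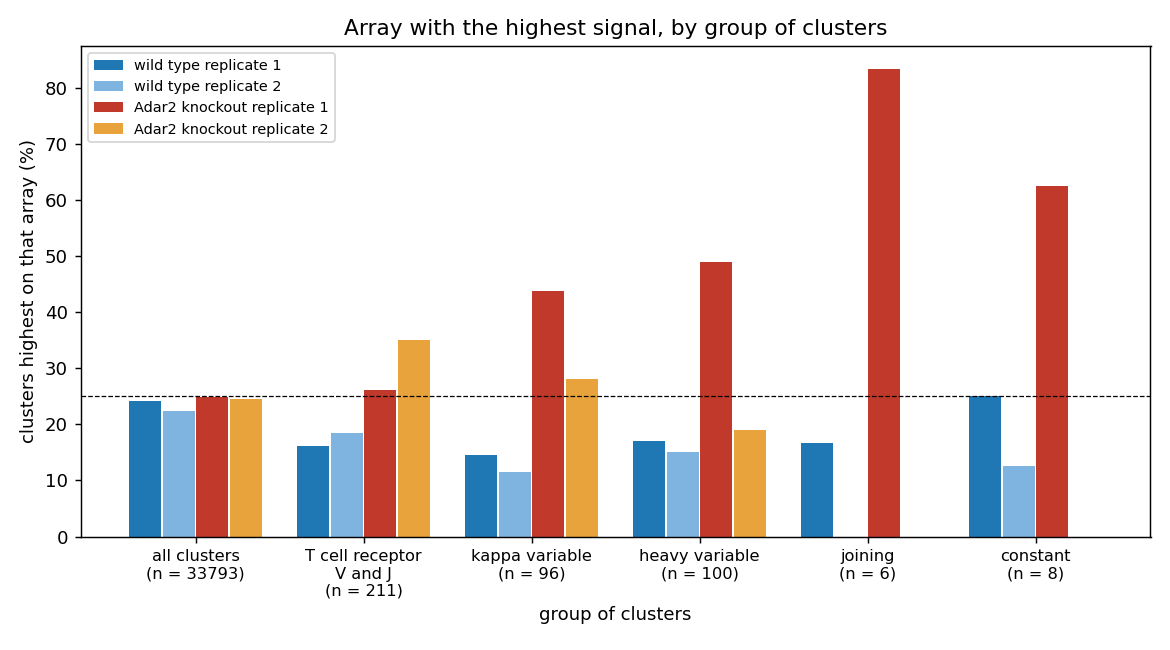
Percent of clusters (vertical axis) that had their highest log2 signal on each of the 4 arrays, for 6 groups of clusters with their number, and the dashed line marks an equal share. Adar2 knockout replicate 1 holds 83.3% of the joining, 62.5% of the constant, 49% of the heavy variable and 43.8% of the kappa variable clusters, but 26.1% of the T cell receptor clusters and 24.9% of all clusters.

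Position along the loci was then considered. Heavy chain variable segments lay between 149 and 2570 kb from Ighj1. Divided by distance into 3 parts of near equal number, their median excess on replicate 1 was 0.23 in the nearest part, 0.06 in the middle part and 0.20 in the farthest part. Segments at least 0.5 above the other arrays numbered 2, 3 and 6 in these parts. In the kappa locus, where variable segments lay between 19 and 3167 kb from Igkj1, the medians were 0.11, 0.20 and 0.09 and the numbers 1, 6 and 1. The middle part of the kappa locus held the Igkv4 segments named above. Variable segments higher in the knockout at an unadjusted limma p below 0.05 numbered 9, 3 and 2 in the heavy chain parts and 3, 2 and 4 in the kappa parts, so that these measures did not follow distance in the same way.

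**Figure D3:**
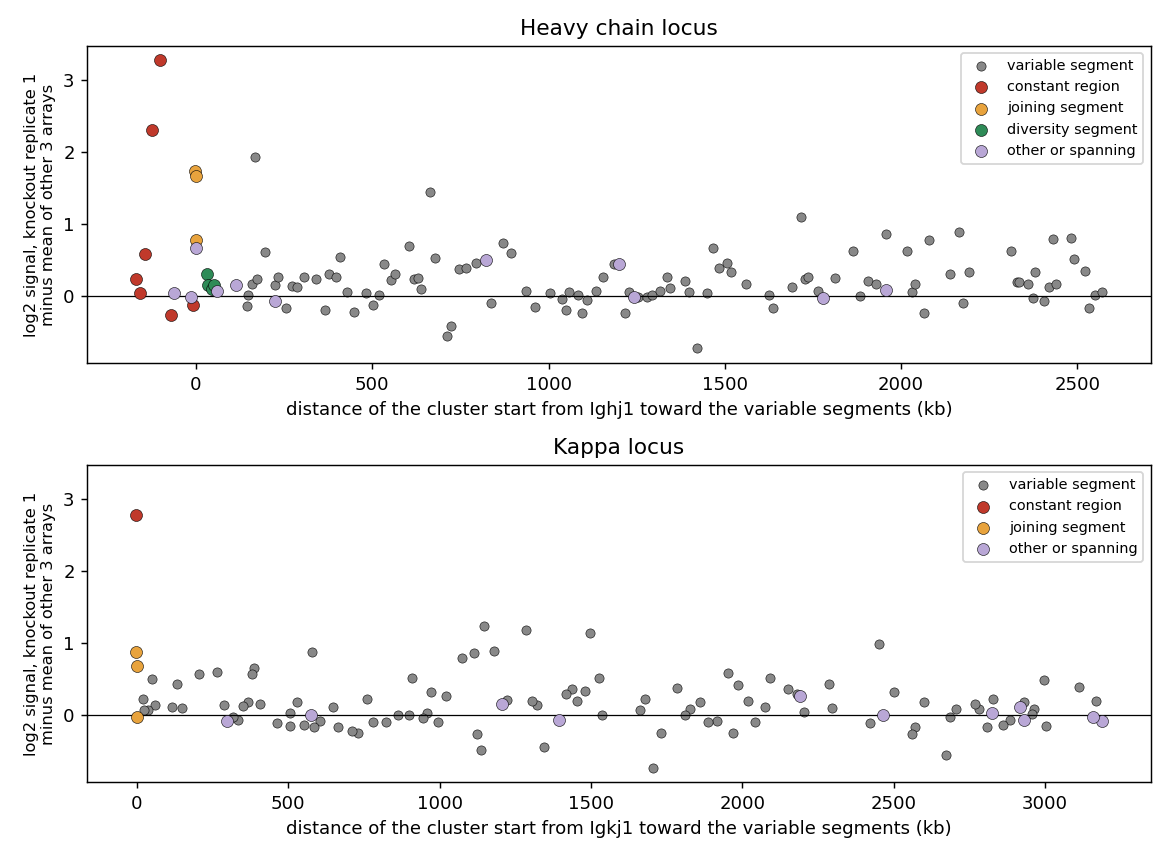
Log2 signal on Adar2 knockout replicate 1 minus the mean of the other 3 arrays (vertical axis) against the distance in kb from Ighj1 or Igkj1 (horizontal axis), with 1 point for each member. The constant and joining clusters near 0 kb reach 3.27 in the heavy chain locus and 2.78 in the kappa locus, and the variable segments scatter between −0.73 and 1.93 along both loci.

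The genotypes were compared with limma over all 33793 clusters. At an unadjusted p below 0.05, 28 members (11.2%) were higher in the Adar2 knockout and 2 (0.8%) were lower, where the shares over all clusters were 3.64% and 2.31%. The 28 comprised 17 in the heavy chain locus and 11 in the kappa locus, and both lower members lay in the heavy chain locus. No member and no other cluster (0.0%) had an adjusted limma p below 0.05, and the lowest adjusted p of a member was 0.834. The smallest two-sided p of an exact permutation test on such a design is 0.333. Of the 211 T cell receptor clusters 11 were higher (5.21%) and 5 lower (2.37%). Among clusters that can cross-hybridize, 16 of 129 members were higher and 1 lower, beside 339 and 127 of 4954 in the whole table. When each array was centred on its median, 20 members were higher and 3 lower, and over all clusters 801 were higher and 1229 lower.

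Both knockout arrays exceeded both wild type arrays in 74 members (29.6%), against 17.7% of all clusters, and both lay below in 18 (7.2%), against 16.5%. Among the T cell receptor clusters these were 52 and 19 of 211. Among all clusters that can cross-hybridize they were 1104 and 526 of 4954. The median log2 difference was 0.110 in the heavy chain locus and 0.105 in the kappa locus, beside 0.005 over all clusters and 0.050 over the T cell receptor clusters. Without knockout replicate 1 these medians were 0.060 and 0.095 for the 2 loci, beside 0.075 over the T cell receptor clusters. Without it 8 heavy chain members were higher and 2 lower, and 6 kappa members were higher and 4 lower, where 3.12% of all clusters were higher and 2.21% lower. When wild type replicate 1 was left out, 10 heavy chain and 7 kappa members were higher and 2 and 0 lower, beside 2.14% and 1.47% of all clusters. Without wild type replicate 2 the heavy chain locus had 12 members higher and 3 lower and the kappa locus 2 higher and 4 lower, beside 2.87% and 2.02%. Without knockout replicate 2, 23 heavy chain members were higher and 4 lower, and 24 kappa members were higher and 2 lower, beside 3.08% and 1.78%.

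A cluster far above on a single knockout array has a wide spread within its group, which raises its p. Of the 28 members called higher, replicate 1 was the highest array in 16 and knockout replicate 2 in 12, and 2 of the 28, Ighv5-4 and Ighv9-1, were also among the 10 members that replicate 1 carried at least 1 above the rest. Their log2 differences ran from 0.26 to 1.30 with a median of 0.45. Without replicate 1, 9 of the 28 had an unadjusted limma p below 0.05 in the same direction. Probes that can cross-hybridize were found in 16 of the 28, and 6 had all 4 signals at or below 4.40.

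Ighv1-77 (chr12:115861867-115862160) gave 3.73 and 3.61 in the wild type and 4.66 and 4.27 in the Adar2 knockout, a log2 difference of 0.80 (SE 0.157, unadjusted limma p of 0.00252, adjusted p of 0.834) that was 0.60 without replicate 1. Only its signal on replicate 1 exceeded 4.40, so the size of this difference is uncertain as well. Igkv8-21 gave 3.81 and 3.93 against 4.27 and 4.58, a difference of 0.56 (SE 0.140, unadjusted limma p of 0.00805). Igkv4-73 gave 5.72 and 5.53 against 6.28 and 6.05, a difference of 0.54 (SE 0.134, unadjusted limma p of 0.0073). Igkv4-74 gave 4.74 and 5.04 against 5.21 and 5.82, a difference of 0.62 (SE 0.224, unadjusted limma p of 0.0326). In the last of these, and in Igkv8-21, the second knockout array was the higher one. Their differences were 0.32 and 0.40 without knockout replicate 2, and 0.93 and 0.71 without replicate 1. That of Igkv4-73 was then 0.42, at an unadjusted limma p of 0.0587. Of Igkv8-21 only the signal on replicate 2 exceeded 4.40, so its difference is uncertain like that of Ighv1-77. The adjusted limma p was 0.834 for all 3 kappa segments.

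Ighv10-3, next to Ighg3 the other member called lower, gave 4.86 and 4.85 in the wild type and 4.50 and 4.47 in the knockout. Its difference was −0.37 (SE 0.101, unadjusted limma p of 0.0113, adjusted p of 0.834) and −0.38 without replicate 1. The knockout arrays lay close together here. Of the 10 named members at an unadjusted limma p below 0.05, 9 lost it when at least 1 of the 4 arrays was left out, and Ighv10-3 did not. Without variance shrinkage 8 of these 10 calls were lost, and those of Ighv10-3 and the long cluster ending in Igha were kept. Among families with at least 5 clusters, 4 of 52 Ighv1 clusters, 3 of 9 Ighv5 clusters, 3 of 26 Igkv4 clusters and 2 of 9 Igkv3 clusters were called higher, beside 3.64% of all clusters. In the smaller Ighv9 family Ighv9-1, Ighv9-2 and Ighv9-4 were called higher, and Ighv9-3 had a difference of −0.40 and was not called. In the families Igkv6, Igkv12 and Igkv5, with 9, 6 and 5 clusters, 0 were called higher. All 8 Ighv2 clusters had a positive difference, of which 1 was called, and knockout replicate 2 was the highest array in 6 of them.

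**Figure D4:**
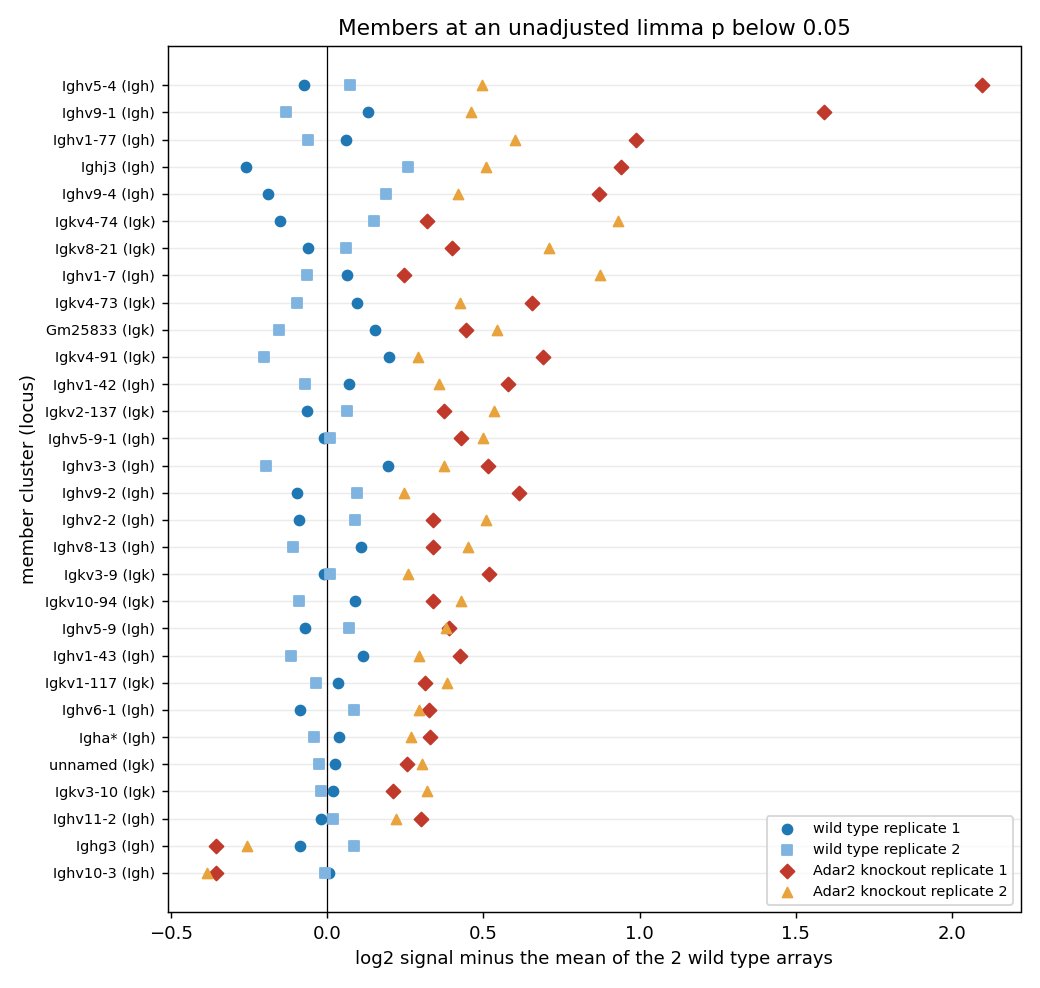
Log2 signal of each array minus the mean of the 2 wild type arrays (horizontal axis) for the 30 members at an unadjusted limma p below 0.05 (vertical axis, locus in brackets), ordered by their log2 difference. In the upper 28 both knockout arrays lie to the right of both wild type arrays, replicate 1 is far out only at Ighv5-4 and Ighv9-1, and the lowest are Ighg3 and Ighv10-3, and the asterisk marks the long cluster ending in Igha.

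Genes that accompany antibody production were examined next. Igj, the gene of the joining chain that links IgA and IgM into polymers, gave 3.88 and 3.72 in the wild type and 4.60 and 3.93 in the Adar2 knockout. It was highest on replicate 1, where alone it exceeded the 4.40 of the Y-linked genes, and its difference of 0.46 (SE 0.226), of uncertain size for this reason, had an unadjusted limma p of 0.0871. Without replicate 1 the difference of Igj was 0.13. Fkbp11, a chaperone of secretory cells, gave 5.18 and 5.10 against 5.73 and 5.54, a difference of 0.50 (SE 0.118, unadjusted limma p of 0.00608). Xbp1, a transcription factor of secretory cells that is also active in many other tissues, gave 10.57 and 10.65 against 10.40 and 10.25, a difference of −0.28 (SE 0.112, unadjusted limma p of 0.0458). These 2 were the only ones of 18 plasma cell clusters to pass, 1 higher and 1 lower, beside 3.64% and 2.31% of all clusters, and the adjusted limma p of both was 0.834. The list mean ran from 6.26 to 6.29 over the 4 arrays. Replicate 1 was the highest array in 3 of the 18, Igj, Fkbp11 and Slamf7, and at least 0.5 above the others in 1, Igj. Sdc1, Prdm1, Irf4, Tnfrsf17 and Pou2af1 were among those not highest on it.

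None of 26 clusters of B cell genes passed in either direction, and their mean ran from 5.14 to 5.20. Replicate 1 was the highest array in 9 of them, at least 0.5 above the others in 0. Cd79a, a part of the B cell receptor, was lowest on replicate 1, with a log2 difference of −0.18 (SE 0.115). Of 13 T cell clusters 0 were higher and 1, Cd4, was lower, and their mean ran from 5.78 to 5.88. Replicate 1 was the highest array in 7 of these 13 and held the highest mean, but was at least 0.5 above the others in 0. Of 8 clusters in a window around the lambda light chain locus, 4 were highest on replicate 1. An unnamed one of them gave 5.35 and 5.39 in the wild type and 5.94 and 5.30 in the knockout, at least 0.5 above the other arrays, while Iglv1 gave 4.24 and 4.73 against 4.85 and 4.55. Among 9 clusters of antibody transport and antigen presentation 0 passed, but 6 were highest on replicate 1. Cd74, the invariant chain of class II molecules, gave 7.28 and 7.32 against 7.90 and 7.47. H2-Ab1, a class II chain, gave 6.39 and 6.59 against 7.12 and 6.55. Pigr, the epithelial receptor that carries polymeric antibodies into secretions, gave 5.78 and 6.05 against 6.06 and 5.92 and thus overlapped between the groups.

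A part of the salivary gland genes was also far above on replicate 1, as were 3 of the 8 constant region clusters. The mean of 21 clusters was 4.81 on both wild type arrays, 6.65 on knockout replicate 1 and 4.94 on knockout replicate 2, and 8 of the 21 were at least 1 above on replicate 1. Besides Bpifa2 these were Cst10, Pip, Smr3a, Dcpp1, Car6, Klk1 and Amy1, while Aqp5, Lpo, Muc19, Bpifa1 and Pigr were within or near the range of the other arrays. In the test 2 of the 21 were higher, Dcpp2 and Prh1, beside 3.64% of all clusters, with adjusted limma p of 0.829 and 0.834. Red cell genes had a list mean of 9.11 and 8.76 in the wild type and of 8.54 and 8.76 in the knockout. All 6 of their clusters were highest on wild type replicate 1, and 1, Alas2, passed the test, lower in the knockout. The part of salivary gland tissue, or of blood, in the immunoglobulin signals was not tested. In RNA from whole tissue, fewer cells of a type and less RNA per cell cannot be told apart.

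**Figure D5:**
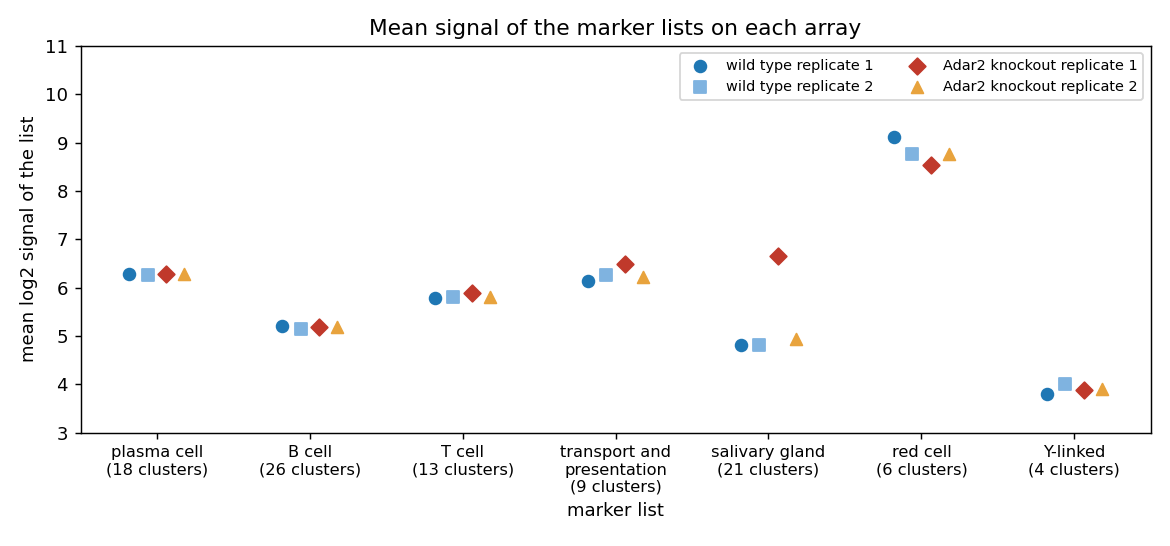
Mean deposited log2 signal (vertical axis) of 7 marker lists (horizontal axis, with their number of clusters) on each of the 4 arrays. The salivary gland list stands at 6.65 on Adar2 knockout replicate 1 against 4.81 to 4.94 on the other 3, while the plasma cell means run from 6.26 to 6.29, the B cell means from 5.14 to 5.20 and the T cell means from 5.78 to 5.88.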

How the data were processed

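Total RNA of whole brain was converted with a whole-transcript kit and run on Affymetrix mouse gene arrays. The authors deposited log2 signals to 2 decimals for 33793 clusters, and the submitters' processing notes name Affymetrix Expression Console and RMA. The table also holds the authors' group averages, log ratios, fold changes and p-values, which were not used. No read depth applies to arrays, and their number limits the precision.

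The file names no genome build. Start and end matched the overlapping RefSeq record of GRCm38.p6 in 119 of 250 members, and at least one of them matched in 198, so names and coordinates refer to that build. Sequences of these segments were not used here.

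The deposited signals were fitted with genotype as the single factor in limma (version 3.58.1, R 4.3.3, functions lmFit and eBayes), two-sided, without further normalization or filter. Benjamini-Hochberg adjustment covered every cluster, with a prior SD of 0.125 and 3.79 prior degrees of freedom. The fit was tested on simulated data. Named were all constant and joining clusters, in each locus the 8 members with the widest range and the 3 highest and 3 lowest differences among non-overlapping members at an unadjusted p below 0.05, Adarb1, and antibody-related genes for context. Further genes were named after their values were seen. The members and lists were chosen with earlier results of these data known. The alternatives comprised quantile and cyclic loess normalization, median centring, filters on signal and cross-hybridization, identical clusters counted once, a replicate block, an intensity trend, robust and unmoderated variances, and leaving out each array.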

Additional observations from a re-analysis of the deposited data

How the results depend on the processing

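No member passed an adjusted p below 0.05 under any alternative, and Adarb1 stayed lower in the knockout and under 0.05 unadjusted throughout, with log2 differences from −1.52 to −1.32. At an unadjusted p below 0.05 were 19 of 131 heavy chain and 11 of 119 kappa members, together 12% beside 5.95% of all clusters. Among clusters above the median signal these were 5 of 25 and 1 of 11 (16.7% beside 5.85%), and with unique probes only 9 of 61 and 7 of 60 (13.2% beside 6.1%). Without variance shrinkage they were 9 of 131 and 10 of 119, with shares closer together (7.6% beside 5.61%). Leaving out each array in turn gave 10 to 27 in the heavy chain locus and 6 to 26 in the kappa locus, together 7.6% to 21.2% beside 3.61% to 5.33% of all clusters. The locus medians ran from 0.060 to 0.175 and from 0.095 to 0.130 when arrays were left out, and the kappa median of 0.105 was 0.250 among clusters above the median signal, 0.055 with unique probes only, 0.065 after median centring or quantile normalization and 0.066 after cyclic loess. The heavy chain median of 0.110 was 0.185 under that signal filter and 0.070 after median centring. The median of the constant regions ran from −0.175 to 0.430 when arrays were left out, the lowest without knockout replicate 1. Members at least 1 above on that array numbered 10, and 26 at a distance of 0.5, 5 with unique probes only and 3 above the median signal, the last chosen after seeing the data. Of 92 clusters on the marker lists 6 had an unadjusted p below 0.05, near the share of all clusters, and 4 to 14 under the alternatives chosen later, the range over left-out arrays being 5 to 14. Deviations of same-numbered arrays from their group means were nearly uncorrelated over all clusters (r = 0.052). With 2 arrays in each group this cannot tell whether the numbers pair the arrays, which the labels do not say. With a replicate block 14 heavy chain and 13 kappa members passed, 10.8% beside 5.01% of all clusters. Beyond fewer clusters or arrays entering, the cause was not tested. Of the single named clusters under the alternatives, 287 comparisons kept direction and side of the threshold, 36 lost and 13 gained an unadjusted p below 0.05, and 9 changed sign without passing it. The low signal of the members limits what the arrays can resolve.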
